A study of Homo sapiens with 9 samples.

Results

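To examine the tubulin genes after LINC00673 knockdown, 10 genes were followed by their symbols in a gene table of 19930 genes: the alpha-tubulin genes TUBA1A, TUBA1B and TUBA1C, the beta-tubulin genes TUBB, TUBB2A, TUBB2B, TUBB3, TUBB4B and TUBB6, and the gamma-tubulin gene TUBG1. All 10 were found and all 10 passed the filter on low values. RNA sequencing had been performed 48 h after transfection of cells labelled MDA-MB-453, an established human breast cancer cell line. The groups were a control siRNA (si-NC) and 2 siRNAs against the long noncoding RNA LINC00673 (si-LINC00673-1 and si-LINC00673-2), delivered with a lipid reagent (Lipofectamine), with 3 libraries per group (replicates 0, 1 and 2). All groups therefore shared the transfection reagent and an siRNA, and an untransfected group was not analysed here. The LINC00673 transcript was also not analysed here, so the knockdown itself was not checked in these libraries. Whether the 3 libraries of a group came from separate cultures was not given in the sources used here, and the P values measure only the spread between these libraries.

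Microtubules are hollow polymers of alpha- and beta-tubulin, which fold on the chaperonin TRiC/CCT and are joined into a heterodimer by the tubulin folding cofactors. Gamma-tubulin does not enter the polymer wall, but in a ring complex it provides the template from which microtubules grow. The isotypes of alpha- and beta-tubulin are encoded by separate genes and differ mostly in the acidic tail at the C-terminus, which carries most of the modifications that motors and microtubule-associated proteins read. Cells also control tubulin mRNA by its own product: when free heterodimers rise, TTC5 recognises the start of the nascent tubulin chain and the mRNA is degraded. Tubulin is commonly used as a loading control on western blots, and it served for that purpose together with GAPDH in the study.

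The coding ends of the beta-tubulin isotypes are shown because they are where these genes differ, and because the likeness of the genes limits how far their fragments can be told apart. The last 60 coding bases before the stop codon of each principal GENCODE release 29 transcript (GRCh38) are given below, 5′ to 3′, with the GAA and GAG codons, which encode glutamate, in capitals.
TUBB: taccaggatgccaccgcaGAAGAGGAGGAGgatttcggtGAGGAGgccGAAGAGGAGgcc
TUBB4B: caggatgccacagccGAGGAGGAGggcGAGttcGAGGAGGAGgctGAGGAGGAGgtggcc
TUBB2A: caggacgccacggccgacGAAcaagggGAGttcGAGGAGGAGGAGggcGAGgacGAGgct
TUBB2B: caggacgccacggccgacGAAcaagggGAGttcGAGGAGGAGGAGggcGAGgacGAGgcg
TUBB3: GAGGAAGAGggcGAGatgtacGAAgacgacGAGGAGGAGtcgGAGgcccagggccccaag
TUBB6: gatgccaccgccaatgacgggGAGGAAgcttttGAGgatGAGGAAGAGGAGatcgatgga
TUBB2A (chr6:3153866-3153925) and TUBB2B (chr6:3224754-3224813), both on the minus strand, held 8 such codons each in their last 20 and differed only at the last base. TUBB (chr6:30724335-30724394), TUBB3 (chr16:89935742-89935801), TUBB4B (chr9:137243494-137243553) and TUBB6 (chr18:12326068-12326127), all on the plus strand, held 9, 9, 10 and 7. At the other end of the coding sequence, the first 12 bases were identical in TUBB and TUBB4B (atgagggaaatc), and those of TUBG1 were atgccgagggaa.

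Over the whole coding sequence, TUBB2A and TUBB2B were 98.2% identical, TUBA1A and TUBA1B 97.3%, TUBA1B and TUBA1C 96.9% and TUBA1A and TUBA1C 96.0%. The other pairs of beta-tubulin genes lay between 81.6% (TUBB and TUBB6) and 88.3% (TUBB2A and TUBB3). Windows of 100 bases were therefore searched in the transcripts of all other genes. In TUBB2A 56.4% and in TUBB2B 46.2% of the windows occurred in another gene, for TUBA1B, TUBA1A and TUBA1C this was 37.2%, 18.6% and 11.5%, and for TUBG1 15.0%, all with TUBG2. TUBB (5.10%), TUBB4B (2.86%) and TUBB6 (0 of 1965 windows) were nearly free of such stretches. Shorter windows, and sequence outside annotated transcripts, were not searched. In TUBB3 89.0% of the windows also occurred in AC092143.1, a gene annotated across the same locus. How fragments that match several genes were counted was not given in the sources used here, so single values of TUBA1A, TUBA1B, TUBA1C, TUBB2A, TUBB2B, TUBB3 and TUBG1 are uncertain to that extent. The spans listed in the table for TUBA1A (minus strand) and TUBA1C (plus strand) also overlapped over 44710 bases of chromosome 12, and no source states that strand was used in counting.

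The spacing of the values of single-transcript genes placed the depth at 23400000 to 27950000 fragments per library and the least covered member at 1035 fragments or more and TUBA1B at 53749 to 65063. Libraries of the same group correlated at r = 0.9960 to 0.9970 over all 19930 genes, without the filter on low values, and siRNA against si-NC libraries at 0.9762 to 0.9856. Of the luminal markers listed for MDA-MB-453, FOXA1 was listed at 0 to 0.04 FPKM and GATA3 at 0.41 to 0.88, whereas ERBB2 (11.8 to 17.8), FGFR4 (17.9 to 33.05), XBP1 (63.6 to 89.5), KRT18 (1679.95 to 2509) and KRT8 (3011 to 3773) were present. FOXA1 and GATA3, both below 1 FPKM in every library, thus went against the label of the cells, as did the high level of VIM, a listed marker of other cell types. Of 9 markers of other cell types, VIM was at 366 to 441 FPKM, COL1A1 at 3.49 to 7.08 and ACTA2 at 0.77 to 1.59, and the other 6 stayed below 1 FPKM, with PTPRC and CDH5 at or near 0. Of the 5 tested markers of the line 3 fell with si-LINC00673-1 and 4 with si-LINC00673-2 by the limits given in the next paragraphs, where 15.6% and 23.1% of all tested genes were called lower, and FGFR4 and KRT18 fell the most among those that fell with both. Correcting for GC content left 2 and 1 of these markers called lower, and median ratio scaling 3 and 2. Of 3 tested markers of other cell types COL1A1 rose with both siRNAs, but neither call remained after division by GAPDH. The part of these markers in the tubulin results was not tested.

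All values are FPKM, fragment counts divided by transcript length and by the size of the library, so that levels can be compared between genes. TUBA1B, the ubiquitous alpha-tubulin, was the most abundant member in si-NC, with 1285 ± 36.8 FPKM (SD, n = 3), followed by TUBB, the main beta-tubulin of dividing cells, with 578 ± 11.8. TUBA1C (420.25 ± 11.97) and TUBB4B (419 ± 19.8) came next, and their libraries overlapped. Much lower were TUBB2B (72.1 ± 2.001), TUBB3 (64.8 ± 4.66), TUBA1A (41.5 ± 1.16), TUBB2A (30.6 ± 2.10), TUBG1 (25.2 ± 0.548) and TUBB6 (18.5 ± 0.922), each without overlap with its neighbours in this order. With si-LINC00673-1 and si-LINC00673-2, TUBA1A, the alpha-tubulin best known from developing neurons, stood above TUBB2B and TUBB3 in every library, while in si-NC it had stood below both in every library. TUBB2B and TUBB3 overlapped with each other in both siRNA groups, and TUBA1C and TUBB overlapped with si-LINC00673-1.

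**Figure D1:**
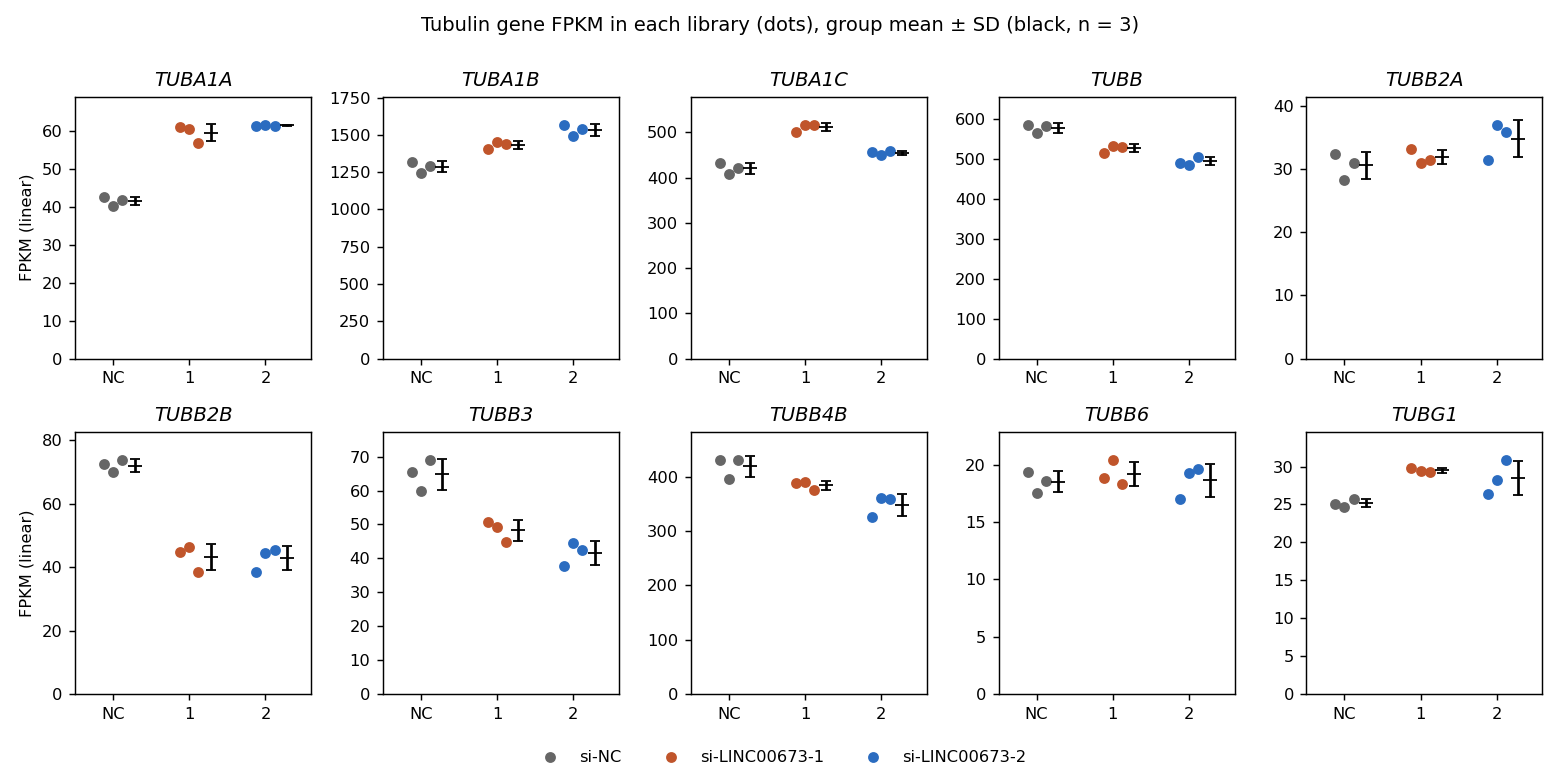
FPKM (linear axis from 0) of each member in the 9 libraries (dots, 3 per group; NC is si-NC, 1 is si-LINC00673-1, 2 is si-LINC00673-2), with the group mean ± SD in black. TUBA1A lies higher with both siRNAs (41.5 FPKM in si-NC against 59.5 and 61.5), TUBB2B and TUBB3 lie lower, and TUBB2A and TUBB6 overlap between all groups.

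To compare the groups, differences were taken on the log2(FPKM + 1) scale with limma over 12884 genes. A gene was called with a fold change of at least 1.3 (0.38 on the log2 scale) and an unadjusted P of at most 0.05, the criteria of the study, and the Benjamini-Hochberg adjusted P over all tested genes is given. With si-LINC00673-1, 1 of the 10 members rose (TUBA1A), 2 fell (TUBB2B and TUBB3) and 7 were not called, where 11.1% of all tested genes were called higher and 15.6% lower. With si-LINC00673-2, the counts were again 1, 2 and 7 and the genes were the same, where 11.0% of all tested genes were called higher and 23.1% lower. Both comparisons share the si-NC libraries. By P alone 8 members passed with si-LINC00673-1 and 9 with si-LINC00673-2, against 67.7% and 72.9% of all tested genes. Without overlap between the libraries of the groups were 8 members in either comparison, 4 higher and 4 lower, against 70.0% and 73.0% of all tested genes. The members' counts were thus read against a table in which most genes moved by a small amount. The median log2 difference of the 10 members was 0.055 and 0.061, against 0.0032 and −0.095 for all tested genes. It was 0.28 and 0.25 for the 3 alpha-tubulin genes and −0.13 and −0.25 for the 6 beta-tubulin genes. Under the other scalings described below the beta-tubulin median stayed below 0, but after the GC correction it was only −0.040 and −0.090. The alpha-tubulin median stayed above 0 except after division by GAPDH with si-LINC00673-2 (−0.17).

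**Figure D2:**
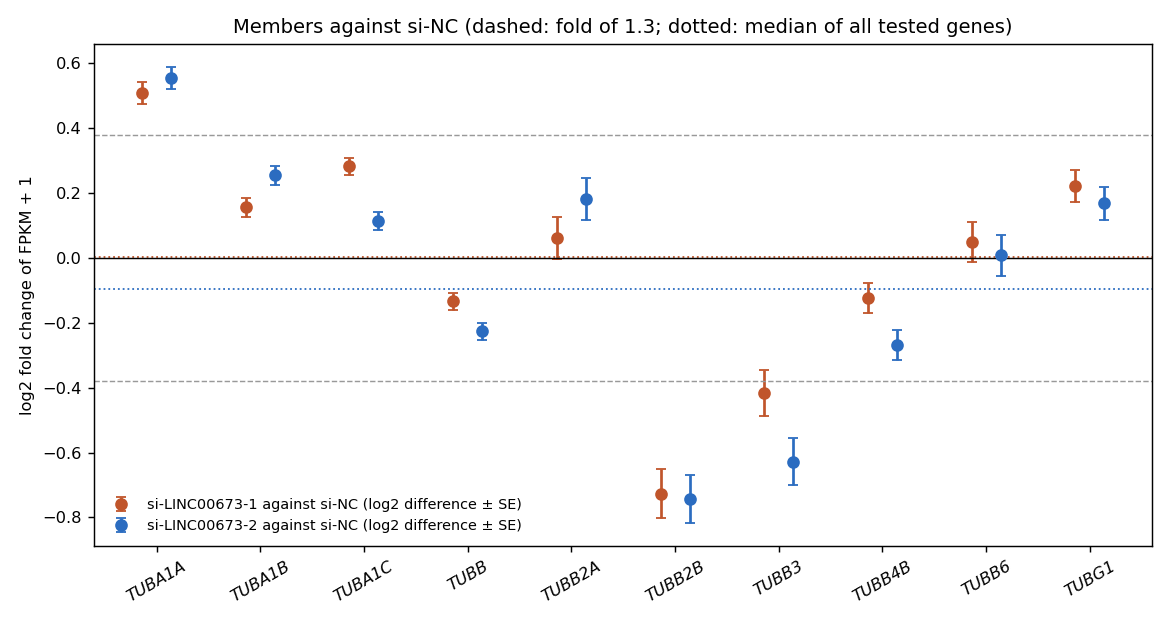
Log2 fold change of FPKM + 1 ± SE of each member against si-NC, for si-LINC00673-1 and si-LINC00673-2 (9 libraries in 1 fit). Dashed lines mark a fold of 1.3 and dotted lines the median of all tested genes (0.0032 and −0.095); TUBA1A lies above the dashed lines and TUBB2B and TUBB3 below them.

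Among the alpha-tubulin genes, TUBA1A (chr12:49578578-49666418, minus strand, GRCh37, as the table lists it) rose. Its FPKM was 42.6, 40.3 and 41.7 in si-NC, 61.1, 60.5 and 56.9 with si-LINC00673-1, and 61.3, 61.7 and 61.4 with si-LINC00673-2. Every siRNA library lay above every si-NC library, by 43.3% and 48.0% on average. The log2 difference was 0.51 ± 0.034 (SE; limma, adjusted P = 1.4e-06) and 0.55 ± 0.034 (adjusted P = 4.7e-07).

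TUBA1B (chr12:49521565-49525304, minus strand) was higher without overlap but under the fold limit. It measured 1319, 1246 and 1291 FPKM in si-NC, 1405, 1452 and 1441 with si-LINC00673-1, and 1568, 1492 and 1540.15 with si-LINC00673-2. The order of the groups held in every library, and the log2 differences from si-NC were 0.16 ± 0.029 (limma, adjusted P = 0.00098) and 0.25 ± 0.029 (adjusted P = 3e-05). Because of its level, TUBA1B carried most of the absolute difference of the alpha-tubulin genes, and it made up 73.6%, 71.5% and 74.8% of their summed FPKM in si-NC, si-LINC00673-1 and si-LINC00673-2.

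TUBA1C (chr12:49621709-49667121, plus strand) stood highest with si-LINC00673-1. Its values were 432, 408 and 421 FPKM in si-NC, 501, 515 and 517 with si-LINC00673-1, and 456, 449.7 and 458 with si-LINC00673-2, and no 2 groups overlapped. The log2 difference was 0.28 ± 0.027 (limma, adjusted P = 1.2e-05) with si-LINC00673-1 and 0.11 ± 0.027 (adjusted P = 0.0037) with si-LINC00673-2, both under the fold limit. With a correction for GC content the second was 0.18.

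Among the beta-tubulin genes, TUBB2B (chr6:3177490-3227968, minus strand), a beta-tubulin best known from the nervous system, fell the most. It measured 72.6, 69.9 and 73.8 FPKM in si-NC, 44.8, 46.4 and 38.6 with si-LINC00673-1, and 38.4, 44.4 and 45.4 with si-LINC00673-2. All siRNA libraries lay far below all si-NC libraries, and the siRNA groups overlapped. TUBB2B fell by 0.73 ± 0.075 on the log2 scale (limma, adjusted P = 2e-05) and by 0.74 ± 0.075 (adjusted P = 1.2e-05).

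Its near-identical neighbour TUBB2A (chr6:3153900-3157783, minus strand) was not called. TUBB2A measured 32.4, 28.3 and 31.0 FPKM in si-NC, 33.1, 31.0 and 31.5 with si-LINC00673-1, and 31.5, 37.0 and 35.9 with si-LINC00673-2. The groups overlapped, and the log2 differences were 0.06 ± 0.065 (95% interval −0.085 to 0.21; limma, adjusted P = 0.44) and 0.18 ± 0.065 (0.035 to 0.33; adjusted P = 0.03). TUBB2A is GC-rich (59.3%), and after a correction for GC content in each library the differences were 0.23 and 0.41, the second of which was a call. The sum of TUBB2A and TUBB2B, which depends less on how their shared fragments were split between them, was 103 ± 3.88 FPKM in si-NC, 75.1 ± 4.40 with si-LINC00673-1 and 77.6 ± 6.61 with si-LINC00673-2, with no overlap between si-NC and either siRNA.

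As the coding sequences of these 2 genes are nearly the same, their promoters are shown, where they are not. The 250 bases before the RefSeq start of each gene (GRCh38.p14) are given 5′ to 3′ on the minus strand, TUBB2A at chr6:3157545-3157794 and TUBB2B at chr6:3227654-3227903, with matches to TATAAA and to CCAAT, on either strand, in capitals.
TUBB2A: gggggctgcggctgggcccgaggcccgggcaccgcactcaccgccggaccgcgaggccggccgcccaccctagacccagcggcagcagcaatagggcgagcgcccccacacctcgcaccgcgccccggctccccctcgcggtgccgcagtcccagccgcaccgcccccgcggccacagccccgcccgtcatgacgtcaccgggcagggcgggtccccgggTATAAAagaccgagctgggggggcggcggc
TUBB2B: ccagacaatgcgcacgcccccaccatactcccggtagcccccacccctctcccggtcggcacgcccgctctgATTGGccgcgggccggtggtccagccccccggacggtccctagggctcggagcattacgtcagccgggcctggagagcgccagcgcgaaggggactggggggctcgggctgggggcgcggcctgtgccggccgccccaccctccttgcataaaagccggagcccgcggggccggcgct
TUBB2A held a TATAAA match 30 bases before the start and no CCAAT match, and TUBB2B held a CCAAT match on the reverse strand, which begins 178 bases before the start, and no TATAAA match. Over the RefSeq windows of 300 bases (250 before to 50 after the start), TATAAA occurred in 11.5% and CCAAT in 34.6% of 35116 windows. Of the 15 windows of the 10 members, 10 windows of 8 members held CCAAT, TUBA1B and TUBB2A being the exceptions, and 1 window, that of TUBB2A, held TATAAA. The TUBA1C windows at chr12:49227676-49227975 and chr12:49227769-49228068 overlap and hold the same CCAAT match, which is counted in each. Only exact matches were counted, and near variants of these letters were not looked for. A match is a description of the letters and not a binding site.

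TUBB3 (chr16:89988417-90002505, plus strand), which encodes class III beta-tubulin, a neuronal isotype also found in carcinomas, fell with both siRNAs. The libraries read 65.5, 59.8 and 69.0 FPKM in si-NC, 50.8, 49.3 and 44.8 with si-LINC00673-1, and 37.8, 44.4 and 42.6 with si-LINC00673-2. No group overlapped with another. TUBB3 fell by 0.42 ± 0.072 on the log2 scale (limma, adjusted P = 0.00058) and by 0.63 ± 0.072 (adjusted P = 2.8e-05). The call with si-LINC00673-1 lay close to the fold limit. It was lost without si-LINC00673-1 replicate 2 (−0.36) and without si-NC replicate 2 (−0.37). TUBB3 is GC-rich (61.2%, more than 88.4% of the tested genes with a known transcript), and after a correction for GC content in each library its difference was −0.17 and −0.33, so that neither call remained.

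TUBB (chr6:30687978-30693203, plus strand) and TUBB4B (chr9:140135711-140138159, plus strand), the abundant beta-tubulins, were both lower without overlap but under the fold limit. TUBB measured 586, 564 and 583 FPKM in si-NC, 515, 533 and 531 with si-LINC00673-1, and 491, 486 and 505 with si-LINC00673-2. All 3 groups were apart, and the log2 differences from si-NC were −0.13 ± 0.027 (limma, adjusted P = 0.0015) and −0.23 ± 0.027 (adjusted P = 3.7e-05).

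TUBB4B measured 430.4, 396 and 431 FPKM in si-NC, 388, 391 and 375 with si-LINC00673-1, and 325, 361 and 358 with si-LINC00673-2. The lowest si-NC library was only just above the highest of si-LINC00673-1, and the log2 differences were −0.12 ± 0.046 (limma, adjusted P = 0.04) and −0.27 ± 0.046 (adjusted P = 0.00051). TUBB4B is also GC-rich (59.5%), and with the GC correction its differences were 0.054, in the other direction, and −0.03. TUBB, with 52.6% GC, had −0.13 and −0.15 after the same correction.

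TUBB6 (chr18:12307668-12329825, plus strand), a class V beta-tubulin, overlapped between all groups. Its values ran from 17.6 to 19.4 FPKM in si-NC, from 18.4 to 20.4 with si-LINC00673-1 and from 17.0 to 19.7 with si-LINC00673-2. The log2 differences were 0.05 (95% interval −0.088 to 0.19; limma, adjusted P = 0.5) and 0.0077 (−0.13 to 0.15; adjusted P = 0.92). TUBB6 is as GC-rich as TUBB3 (61.2%), and after the GC correction its differences were 0.30 with both siRNAs (limma, unadjusted P = 3e-06 and 2.3e-06), still under the fold limit.

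TUBG1 (chr17:40761358-40767256, plus strand), the main gamma-tubulin gene, measured 25.1, 24.7 and 25.8 FPKM in si-NC, 29.9, 29.4 and 29.3 with si-LINC00673-1, and 26.3, 28.2 and 30.9 with si-LINC00673-2. Each siRNA library lay above the si-NC libraries, and the log2 differences of 0.22 ± 0.05 (limma, adjusted P = 0.0032) and 0.17 ± 0.05 (adjusted P = 0.013) were under the fold limit. After the GC correction they were 0.34 and 0.36, also under it.

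To see the family as a whole, FPKM were summed over the alpha- and over the beta-tubulin members in each library. The summed alpha-tubulin FPKM was 1747 ± 49.9 (SD, n = 3) in si-NC, 2003 ± 31.9 with si-LINC00673-1 and 2049.6 ± 42.2 with si-LINC00673-2. The summed beta-tubulin FPKM was 1183 ± 40.5, 1054 ± 16.4 and 979.8 ± 34.7 in the same order. For either sum, no siRNA library overlapped with si-NC on the deposited scale, although the alpha-tubulin sum with si-LINC00673-2 turned below si-NC when divided by GAPDH (log2 difference −0.20 against 0.23). As the sums moved apart, their total differed less, with 2929.8 ± 88.5, 3057 ± 40.6 and 3029 ± 35.7 FPKM. It lay above si-NC in every library with si-LINC00673-1 and overlapped with si-NC with si-LINC00673-2. As a percent of all FPKM the total was 0.560 ± 0.012, 0.620 ± 0.0077 and 0.588 ± 0.0059, without overlap between si-NC and either siRNA.

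The ratio of summed alpha- to summed beta-tubulin FPKM, which no scaling of a whole library can change, was 1.49, 1.49 and 1.45 in si-NC, 1.87, 1.89 and 1.94 with si-LINC00673-1, and 2.22, 2.02 and 2.05 with si-LINC00673-2. Both siRNA groups lay above si-NC in every library, and si-LINC00673-2 lay above si-LINC00673-1. With the GC correction, an alternative chosen after seeing the data, the group means were 1.52 ± 0.021, 1.87 ± 0.025 and 2.07 ± 0.083, still without overlap. For TUBA1B over TUBB alone, which have similar GC content (54.7% and 52.6%), the ratio was 2.22 ± 0.024, 2.72 ± 0.0068 and 3.11 ± 0.079. These ratios are of mRNA, and tubulin protein was not analysed here.

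**Figure D3:**
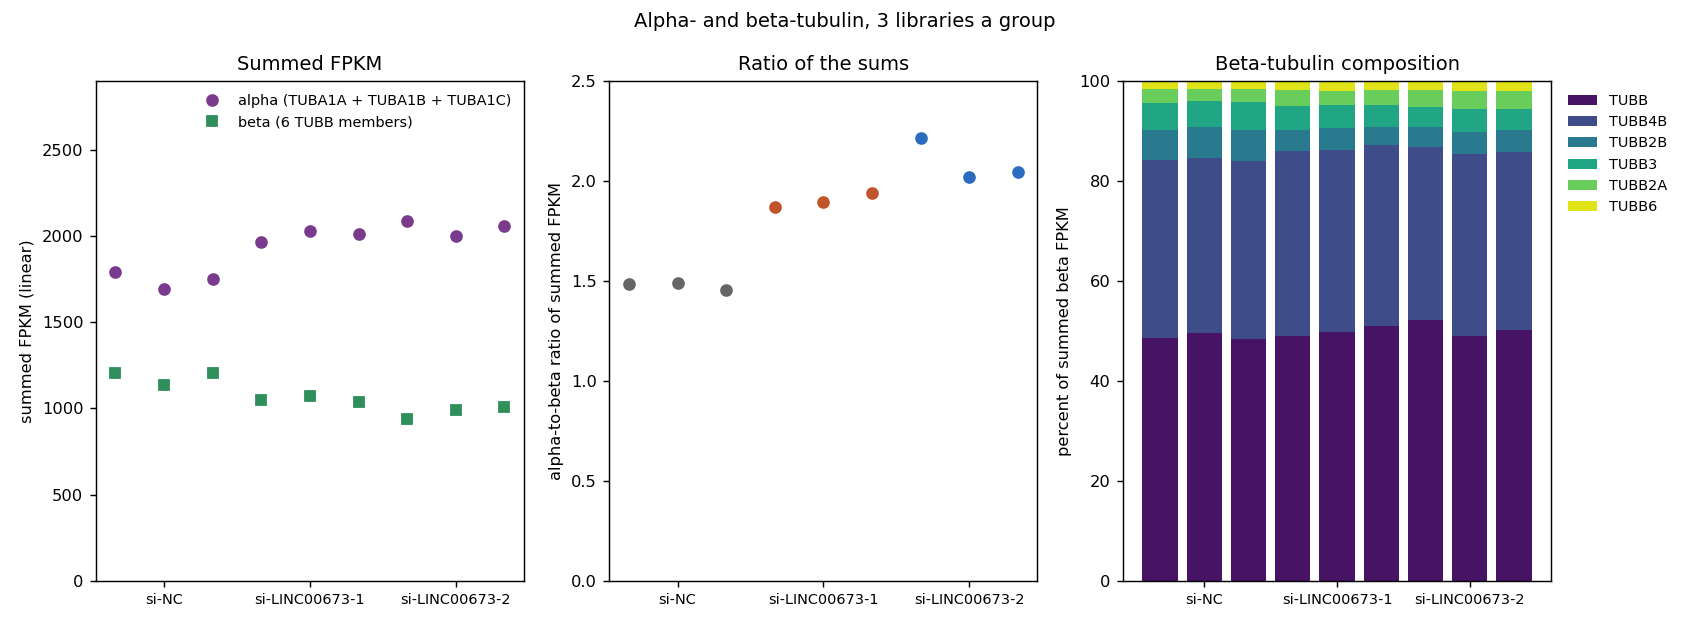
Left, summed FPKM of the 3 alpha-tubulin and 6 beta-tubulin members in each library; middle, their ratio; right, the percent of the summed beta-tubulin FPKM contributed by each gene (3 libraries per group, linear axes from 0). The ratio lies at 1.45 to 1.49 in si-NC, 1.87 to 1.94 with si-LINC00673-1 and 2.02 to 2.22 with si-LINC00673-2.

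Within the beta-tubulin sum the composition shifted mostly in its minor parts. TUBB made up 48.9%, 50.0% and 50.4% in si-NC, si-LINC00673-1 and si-LINC00673-2, and TUBB4B 35.4%, 36.5% and 35.5%. The share of TUBB2B went from 6.09 ± 0.069% to 4.10 ± 0.34% and 4.36 ± 0.24%, and that of TUBB3 from 5.47 ± 0.23% to 4.58 ± 0.26% and 4.24 ± 0.23%. TUBB2A went the other way, from 2.58 ± 0.10% to 3.03 ± 0.13% and 3.55 ± 0.19%. Among the alpha-tubulin members TUBA1A made up 2.38%, 2.97% and 2.9998%.

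To compare the siRNAs with each other, si-LINC00673-2 was set against si-LINC00673-1. None of the 10 members was called, where 2.19% of all tested genes were called higher and 5.45% lower. By P alone 5 members passed, against 52.0% of all tested genes, and 6 did not overlap, against 53.7%. TUBA1C was lower with si-LINC00673-2 by P alone (log2 difference −0.17 ± 0.027, limma, adjusted P = 0.001), as were TUBB3 (−0.21 ± 0.072, adjusted P = 0.036), TUBB4B (−0.14 ± 0.046, adjusted P = 0.03) and TUBB (−0.09 ± 0.027, adjusted P = 0.019), and TUBA1B was higher (0.10 ± 0.029, adjusted P = 0.022). The median of all tested genes was itself −0.081 in this comparison. TUBB2B differed by −0.016 between the siRNAs (95% interval −0.18 to 0.15) and TUBA1A by 0.047 (−0.030 to 0.12).

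Some libraries stood low for many members together. In si-NC all 10 members were lowest in replicate 1, and with si-LINC00673-2 7 of 10 were lowest in replicate 0, which had the lowest values of TUBB2A, TUBB2B, TUBB3, TUBB4B, TUBB6, TUBG1 and TUBA1A and the highest of TUBA1B. Without that library the log2 difference in the alpha-to-beta ratio between si-LINC00673-2 and si-NC was 0.46, against 0.50 with it. The count of genes lowest in each library was not made over all tested genes, so it does not set the members apart from other genes.

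The scale also matters for these genes, since GAPDH, a glycolytic enzyme used as an internal control in the study, was itself higher with si-LINC00673-2. GAPDH had 7308 ± 203 FPKM in si-NC, 7947 ± 145 with si-LINC00673-1 and 9835 ± 146 with si-LINC00673-2 (log2 differences 0.12 and 0.43; limma, adjusted P of the second 5e-07). Divided by GAPDH, TUBA1A had a difference of 0.13 with si-LINC00673-2 and was no longer called, and TUBB and TUBB4B passed the fold limit with −0.65 and −0.69. That division lowered the median of all tested genes to −0.10 and −0.46 in the 2 comparisons with si-NC, and left 24.2% and 5.35% of the called genes higher, against 41.7% and 32.2% as deposited. With median ratio scaling the share was 41.5% and 46.3%, with the GC correction 49.9% and 51.3%, and TUBA1A and TUBB2B were called with both siRNAs under either.

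**Figure D4:**
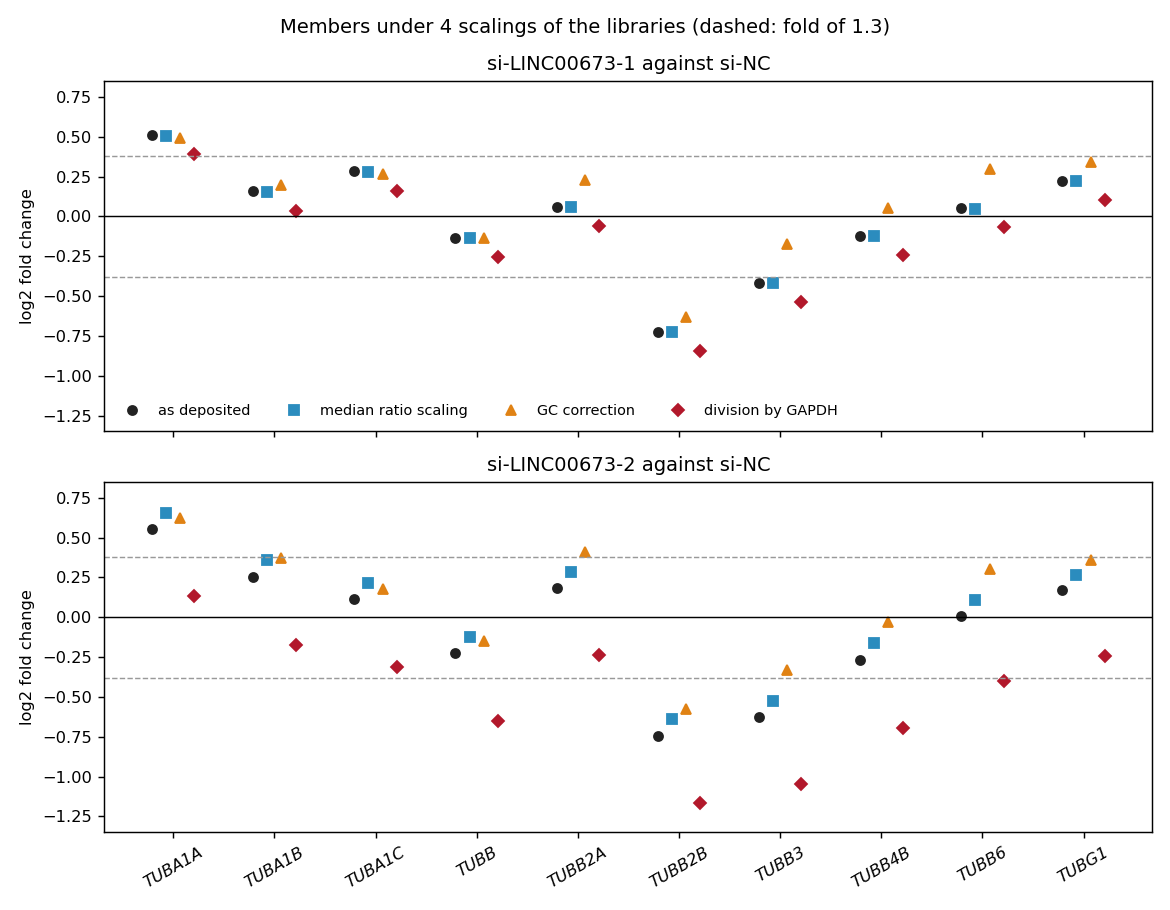
Log2 fold change of each member against si-NC with the FPKM as deposited, after median ratio scaling, after the GC correction and after division by GAPDH (dashed lines, a fold of 1.3). TUBB2B lies below the lower line under all 4, TUBB3 leaves it under the GC correction, and with si-LINC00673-2 the division by GAPDH lowers all members (TUBA1A to 0.13).

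The other genes of the tubulin pathway were followed by lists, counted as higher, lower or not called. The shares of all tested genes beside which these counts stand were 11.1% higher and 15.6% lower with si-LINC00673-1 and 11.0% higher and 23.1% lower with si-LINC00673-2. After division by GAPDH they were 7.19% and 22.5%, and 3.32% and 58.8%, and after the GC correction 11.2% and 11.2%, and 15.3% and 14.5%. Of 12 other tubulin genes 5 were expressed enough to be tested. TUBE1, the epsilon-tubulin of centrioles, fell from 11.7 ± 0.318 FPKM in si-NC to 5.84 ± 0.413 and 5.25 ± 0.447, by 0.90 and 1.03 on the log2 scale (limma, adjusted P = 1.6e-06 and 4e-07). TUBA4A, a further alpha-tubulin that was more abundant than TUBA1A, measured 94.2 ± 2.96, 122 ± 4.24 and 131 ± 3.74 FPKM and its log2 difference was 0.37 with si-LINC00673-1, just under the fold limit, and 0.47 with si-LINC00673-2, where it was called. After the GC correction it was called with both (0.49 and 0.66). With it and the other measured family members added, the alpha-to-beta ratio differed from si-NC by 0.37 and 0.52 on the log2 scale, against 0.36 and 0.50 for the members.

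In the chaperonin TRiC/CCT 4 of 8 subunits rose with either siRNA and none fell (TCP1, CCT2, CCT5 and CCT6A), with a list median of 0.29 in both comparisons, but after division by GAPDH 2 rose with si-LINC00673-1 (median 0.17) and none rose and 1 fell with si-LINC00673-2 (median −0.14). After the GC correction 3 rose with si-LINC00673-1 (median 0.24), CCT6A being no longer called (0.32), and 4 rose with si-LINC00673-2 (median 0.33). TCP1, the subunit alpha, measured 169 ± 1.87 FPKM in si-NC and 265 ± 5.28 and 272 ± 8.46 after the siRNAs, a rise of 0.64 and 0.68 on the log2 scale (limma, adjusted P = 1e-07 and 4.3e-08). CCT2, the subunit beta, rose by 0.53 and 0.55. The list of tubulin folding cofactors also held prefoldin subunits and TTC5, so it does not describe a single step of folding. Of its 15 tested genes 0 were called with si-LINC00673-1 and 1 with si-LINC00673-2 (TBCC, which fell by 0.51). The list medians were 0.00047 and 0.010. By limma P alone, without the fold limit, 5 of the 15 passed with si-LINC00673-1 and 4 with si-LINC00673-2, against 67.7% and 72.9% of all tested genes. After division by GAPDH 7 of the 15 were called lower with si-LINC00673-2. TTC5, the factor of tubulin mRNA autoregulation, measured 4.79 ± 0.673, 4.60 ± 0.457 and 4.76 ± 0.127 FPKM, and its groups overlapped.

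In the gamma-tubulin ring complex, the partners of TUBG1, 1 of 11 genes rose and 3 fell with either siRNA, and with si-LINC00673-2 these counts were near the shares of all tested genes. After division by GAPDH none was called higher and 7 lower with si-LINC00673-2. MZT2A and MZT2B, small ring proteins encoded by near-identical copies, fell the most, by 1.53 and 1.49 with si-LINC00673-1 and by 1.04 and 1.13 with si-LINC00673-2 on the log2 scale, while TUBGCP6 fell by 0.53 and 0.78 and TUBGCP5 rose by 0.52 and 0.50. After the GC correction TUBGCP6 was no longer called with si-LINC00673-1 (−0.27), and MZT2A and MZT2B were still called lower with both siRNAs (−1.27 and −0.93 with si-LINC00673-1, and −0.74 and −0.57 with si-LINC00673-2).

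Of the tubulin-modifying enzymes 17 of 25 were tested, and with each siRNA 4 fell and none rose (list medians −0.074 and −0.13), a count near the 23.1% called lower over all tested genes with si-LINC00673-2. With si-LINC00673-2, 2 were called lower after median ratio scaling and 11 after division by GAPDH, and after the GC correction 1 was called higher and 3 lower with each siRNA. AGBL2, a carboxypeptidase that trims tubulin tails, and TTLL3, a glycylase, fell with both siRNAs, by 0.50 and 0.60 and by 0.51 and 0.57. TTL, which adds the terminal tyrosine of alpha-tubulin, fell with si-LINC00673-2 by 0.46, and with si-LINC00673-1 its difference was −0.20. Among 18 tested microtubule-associated and plus-end proteins 1 rose and 1 fell with si-LINC00673-1, and 1 rose and 2 fell with si-LINC00673-2. STMN3, a stathmin that binds free heterodimers, was the gene that fell with both (0.60 and 0.68). Among 10 tested severing and depolymerising proteins 1 rose with si-LINC00673-1 (KIF2A, 0.38) and 2 fell when si-LINC00673-2 was used. MARK4, a kinase that detaches microtubule-associated proteins, was the called gene among 4 MARK kinases and fell by 0.43 and 0.51 (limma, adjusted P = 4e-05 and 9.4e-06). After the GC correction the differences of MARK4 were −0.26 and −0.28 (limma, adjusted P = 4.6e-05 and 2.1e-05). Those of STMN3 were −0.24 and −0.29 (limma, adjusted P = 0.00014 and 2.6e-05). Both genes were still lower but under the fold limit, so none of these was a call. The same correction called MARK2 higher with si-LINC00673-1 (0.40), and MAP1S, MAP7D1 and MAPRE2 among the microtubule-associated proteins higher with both siRNAs (0.87 and 1.008, 0.62 and 0.59, and 0.38 and 0.40).

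Lists of internal control genes and of G2/M genes were kept for comparison. Of 10 internal control genes 2 rose and 1 fell with si-LINC00673-1, and 2 rose with si-LINC00673-2. With si-LINC00673-2 4 were called higher after median ratio scaling or the GC correction, and after division by GAPDH none was called higher and 3 lower. ACTB, cytoplasmic actin, rose with si-LINC00673-1 (0.57) and had 0.35 with si-LINC00673-2. Of 20 G2/M genes none was called with si-LINC00673-1 (median 0.051), and 5 fell with si-LINC00673-2 (median −0.29), near the 23.1% called lower over all tested genes. By limma P alone 14 of the 20 passed with si-LINC00673-1 and 17 with si-LINC00673-2, against 67.7% and 72.9% of all tested genes. After division by GAPDH 2 and 19 of the 20 were called lower, against 22.5% and 58.8%, and after the GC correction 2 and 4, against 11.2% and 14.5%. Between the siRNAs 8 of the 20 were called lower with si-LINC00673-2 and none higher, against 5.45% of all tested genes called lower. Their median was −0.29, against −0.081, and all 20 passed by limma P alone, against 52.0%. After median ratio scaling 6 and after the GC correction 5 were called lower between the siRNAs, where 328 of 12884 and 244 of 11190 tested genes were. After division by GAPDH all 20 were, where 5283 of 12884 tested genes were. Whether the share of dividing cells bears on the tubulin values was not tested, and in these bulk libraries a change in the cells cannot be told apart from a change per cell.

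**Figure D5:**
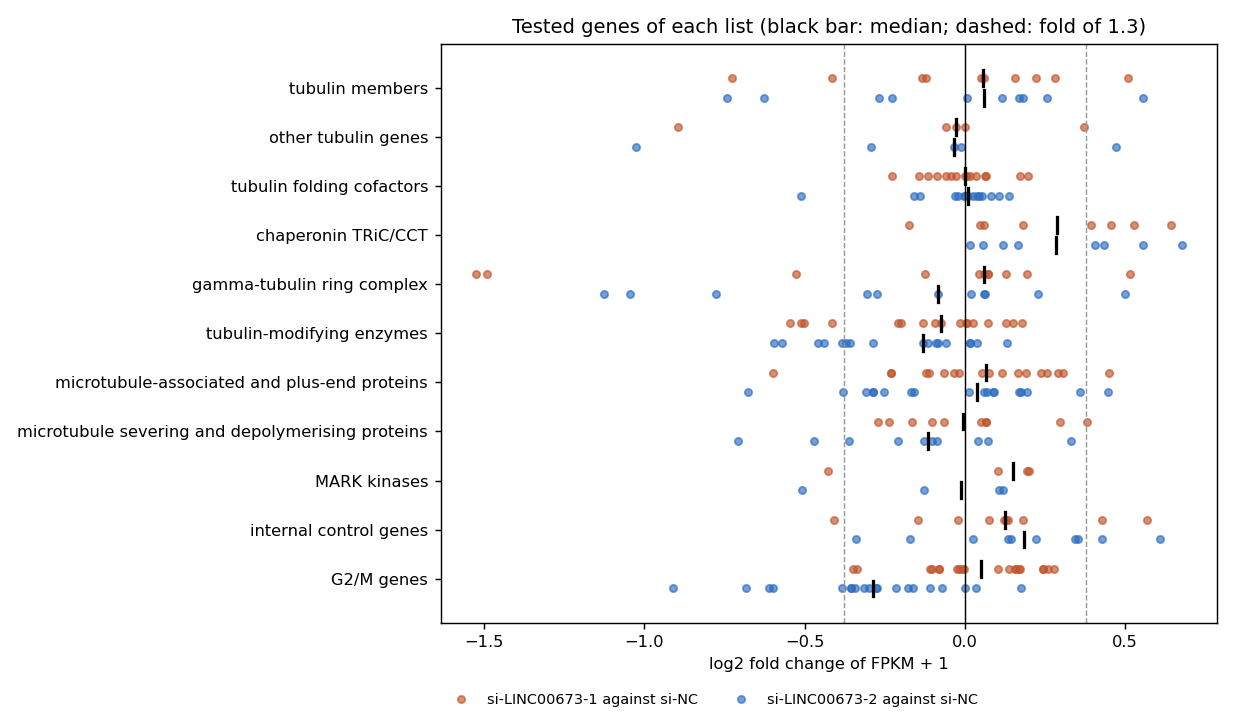
Log2 fold change of FPKM + 1 for the tested genes of each list and for the 10 tubulin members, for both siRNAs against si-NC. Each dot is 1 gene, black bars are medians and dashed lines a fold of 1.3; the chaperonin medians lie at 0.29 for both siRNAs and the G2/M medians at 0.051 and −0.29.

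The genes whose level followed the summed FPKM of the 9 alpha- and beta-tubulin members most closely over the 9 libraries, among 11393 genes searched, were SYNGR2 (Pearson r = 0.927), HBA1 (0.925), CYB5R3 (0.921), PLA2G4D (0.910) and PDGFB (0.905). This is a description over libraries that share 3 groups and their depth, and the tubulin total itself varied by little.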

How the data were processed

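RNA of cells labelled MDA-MB-453 was sequenced on the BGISEQ-500 platform in 9 libraries, 3 per group, grouped by their titles, whose numbers were taken as those of the siRNAs. The authors deposited 1 table of FPKM per gene and library with 2 decimals. The submitters' processing notes name Bowtie2 and GRCh37.p13, and the counting tool was not given in the sources used here. The table holds 19930 genes, and 4 lines without values were left out. The authors' columns of log2 ratios, P values and q values between groups were not used.

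The design allowed for counts or FPKM, and the test for FPKM was used: a linear model was fitted to log2(FPKM + 1) with limma (3.58.1, R 4.3.3), using lmFit and a trended eBayes. It held the condition alone, the 9 libraries together, and the 12884 genes whose mean reached 1 FPKM. Adding 1 understates the change of low genes. A call required a 1.3-fold difference and an unadjusted P up to 0.05. With 3 against 3 libraries an exact permutation test could not go below 0.1 and was not used. The fit was tested on simulated data. Depth is not in the table and was estimated from the value steps of single-transcript genes. Medians and counts of a list are descriptions, and no list was tested. GC content was known for 86.9% of the tested genes and was corrected by a smooth curve (lowess, span 0.3). Sequences were read from GENCODE release 29 (GRCh38) and the RefSeq promoter table (GRCh38.p14), and table coordinates (GRCh37) were kept apart from them. The coding ends of the alpha-tubulin genes and 1 marker of the line are not reported here. Shared windows and motifs were counted in Python version 3.11.15.

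All 10 members are named, and from each list up to 2 genes with the largest mean difference among those called in the same direction with both siRNAs, besides GAPDH, ACTB, TTC5, TTL and MARK4, and the 5 genes most like the tubulin total. TUBA4A, CCT5, CCT6A, TBCC, TUBGCP5, TUBGCP6, KIF2A, MARK2, MAP1S, MAP7D1 and MAPRE2 were named after their values were seen. The members and lists were chosen with earlier results of these data known. The alternatives covered the added value, the filter, the limits, the scaling, GC content, the libraries in the fit, each library left out and the replicate label as a block.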

Additional observations from a re-analysis of the deposited data

Results flagged for a closer look

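For 5 members the fit of the difference between the siRNAs itself passed an adjusted P of 0.05 (limma, over all 12884 tested genes). TUBA1B was higher with si-LINC00673-2 than with si-LINC00673-1, with a log2 difference of 0.098 (adjusted P = 0.022). TUBA1C differed by −0.17 (adjusted P = 0.001), TUBB by −0.092 (adjusted P = 0.019), TUBB3 by −0.21 (adjusted P = 0.036) and TUBB4B by −0.14 (adjusted P = 0.03). By unadjusted limma P alone 5 of the 10 members passed, against 52.0% of all tested genes, so the count of members was near that share. None reached a fold of 1.3, and the median of all tested genes was −0.081 in the same comparison. TUBA1B and TUBA1C, which share sequence and are both alpha-tubulin genes, differed in opposite directions.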

How the results depend on the processing

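Against si-NC, TUBA1A, TUBB, TUBB2B and TUBB3 kept their direction under all alternatives. With a fold limit of 1.5, 1 member was called with si-LINC00673-1 (TUBB2B), and TUBB2B and TUBB3 were called with si-LINC00673-2. TUBA1A, with folds of 1.42 and 1.47, was called with neither siRNA at that limit. With no fold limit 8, 9 and 5 members were called with si-LINC00673-1, with si-LINC00673-2 and between the siRNAs. Division by GAPDH gave 5 calls with si-LINC00673-2 and 4 between the siRNAs. It also set the summed alpha-tubulin log2 difference to 0.077, −0.20 and −0.27 and the beta-tubulin one to −0.29, −0.70 and −0.41 in the same 3 comparisons. It reversed TUBB2A (−0.057) and TUBB6 (−0.065) with si-LINC00673-1, TUBA1B (−0.17), TUBA1C (−0.31), TUBB2A (−0.23), TUBB6 (−0.40) and TUBG1 (−0.25) with si-LINC00673-2, and TUBA1A (−0.26), TUBA1B (−0.21) and TUBB2A (−0.18) between the siRNAs, where GAPDH itself was higher with si-LINC00673-2. Median ratio scaling set the summed alpha-tubulin to 0.33 with si-LINC00673-2 and 0.14 between the siRNAs, and beta-tubulin to −0.17 and −0.00077, and reversed TUBB (0.012), TUBB2B (0.086), TUBB6 (0.056) and TUBG1 (0.047) between the siRNAs. The GC correction reversed TUBB4B with si-LINC00673-1 (0.054), and TUBB2B (0.053), TUBB6 (0.0070) and TUBG1 (0.013) between the siRNAs, and the cause was not tested. It called TUBB2A higher with si-LINC00673-2 (0.41). Among alternatives chosen after seeing the data, the log2 difference in the alpha-to-beta ratio was 0.30 and 0.45 with the GC correction and 0.29 for TUBA1B over TUBB alone with si-LINC00673-1, against 0.36 and 0.50. Leaving out 1 library each left TUBB6 with si-LINC00673-2 between −0.029 and 0.070, and TUBB2B between −0.095 and 0.057 and TUBB6 between −0.080 and 0.020 between the siRNAs, and no other member turned. The replicate labels repeat between groups, but same-numbered libraries did not deviate together (r = −0.24 to 0.10; 2, 1 and 0 of 6 libraries in the 3 comparisons correlated best with their own number), and with a replicate block the calls of the members were the same, 3, 3 and 0, as 3449, 4400 and 988 genes were called, against 3436, 4385 and 984. Over all genes the calls were 1573, 2270 and 224 with a fold limit of 1.5, 8724, 9396 and 6697 with none, and 2211, 2714 and 547 with a mean of at least 5 FPKM. Between the siRNAs they were 1656 with 0.1 FPKM added and 571 with the GC correction, and after division by GAPDH 8002 with si-LINC00673-2 and 5356 between the siRNAs.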
